A study of Mus musculus with 10 samples.

Results

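The Rab GTPases are the largest branch of the Ras superfamily of small GTP-binding proteins. The family was taken here as every protein-coding mouse gene whose symbol is Rab, then 1 or 2 digits and at most 1 letter or a letter plus a digit. Regulators such as Rab3gap1 or Rab11fip1 were kept out. This rule found 59 genes among the 35501 genes of the table, without use of any measured value. The series holds 10 libraries from single mouse oocytes arrested at metaphase II, the stage at which an egg awaits fertilisation. All oocytes came from ovaries of ICR mice aged 6 to 8 weeks and were isolated at the germinal vesicle stage, before meiosis resumes. They matured in culture at 37 °C under 5% CO2 and were taken as metaphase II oocytes after 16 h. The 5 control libraries are labelled only as control, and what the control medium held is not stated. The 5 treated libraries came from oocytes whose 16 h culture included 0.1 µg/mL TubA. This is a usual short name of tubastatin A, an inhibitor of the cytoplasmic tubulin deacetylase Hdac6. The labels name no animal, so n counts libraries. Each p-value rests on library-to-library spread, part of which may be technical.

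Values are TPM, a length-normalised share of each library's transcripts, summed over the transcripts of each gene. TPM are shares of a library, so a lower share and less RNA per oocyte cannot be told apart, and the sequencing depth behind each value is unknown. The labelled cell type was checked against defining genes. The oocyte growth factor Gdf9 stood at 5587 ± 812 TPM in control and 6343 ± 845 TPM in TubA (SD, n = 5 each), and the summed level of 12 oocyte markers ran from 29115 to 47261 TPM. Some single markers varied far more between libraries than the sum. Zp3 ran from 406 to 5363 TPM in control and from 749.8 to 8123 TPM in TubA. Zp2 ran from 93.1 to 3256 TPM and from 206 to 4518 TPM. Mos varied less, from 256 to 346 TPM in control and from 235 to 429.6 TPM in TubA. The 12 markers of cumulus and granulosa cells, which surround the oocyte, summed to 9.25 to 15.5 TPM in control and 8.87 to 20 TPM in TubA, with Foxl2 and Amh listed at 0 throughout. Most of that sum was Cyp19a1, at 6.59 to 18 TPM, and 10 of the 12 were under 1 TPM in every library. Has2 reached 1.51 TPM in control replicate 3. The 8 markers of theca and stroma summed to 2.32 to 17.2 TPM in control and 2.10 to 13.1 TPM in TubA. The 8 markers of blood, immune and endothelial cells summed to 27.2 to 75.6 TPM in control and 39.7 to 79.4 TPM in TubA, mostly Pecam1 and C1qb, with means of 26 and 19.2 TPM. Of these 8, Ptprc, Lyz2 and Cdh5 were under 1 TPM in every library. The part of other cells in the results was not tested. Hdac6 was at 4.34 ± 2.66 TPM in control and 5.60 ± 3.2 TPM in TubA (SD, n = 5 each). The libraries fell into 2 sets by their correlation over all genes, which are no label of the submitters. Set A holds control replicates 1, 2 and 3 and TubA replicates 1 and 2, and set B holds the other five. For some members the values within each set are given as well.

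A Rab protein works as a switch. It is active on a membrane while it holds GTP, and it is inactive and held in the cytosol by a GDP dissociation inhibitor while it holds GDP. Exchange factors load GTP, GTPase-activating proteins of the TBC family end the active state, and prenyl groups on cysteines at the end of the protein anchor it. Each Rab marks its own membranes and recruits effectors such as motors and tethers. In mouse oocytes Rab11a is known for vesicles that organise actin and move the spindle, and Rab3a and Rab27a for the cortical granules released at fertilisation.

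The features that make a protein a Rab can be read from the coding sequences. The first set shows the 24 bases that encode the loop gripping the phosphates of the nucleotide, for some abundant members and a paralog of each. Each comes from a GENCODE M21 transcript of the gene, 5′ to 3′, the most abundant with a complete coding sequence that held the loop. For Rab11b that transcript held 6.78% of the gene's TPM. Capitals in the second of a pair mark bases that differ from the first.
Rab11a: ggagattctggtgttggaaagagt
Rab11b: ggGgaCtcAggtgtAggTaagagC
Rab1b: ggtgactccggcgtgggcaagtcg
Rab1a: ggCgaTtcTggGgtTggAaagtcC
Rab2a: ggcgacacaggtgttggtaaatcg
Rab2b: ggAgacacaggtgtGggGaaGtcA
Rab6a: ggagagcagagcgttggaaagacg
Rab6b: ggGgagcagagcgtCggGaagacg
The loops of Rab11a and Rab11b differed at 6 of 24 bases, those of Rab1b and Rab1a at 7, those of Rab2a and Rab2b at 5 and those of Rab6a and Rab6b at 3. Over the whole coding sequence, Rab11a and Rab11b were 75.7% identical and Rab6a and Rab6b 78.5%. The longest identical run was 14 bases in both of these pairs, 26 bases between Rab2a and Rab2b and 38 bases between Rab1b and Rab1a. Pairs not printed ran from 62.5% identical, for Rab7 and Rab7b, to 78.3%, for Rab8a and Rab8b. Rab38 and Rab32 were 70.6% identical.

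The second set shows the end of the coding sequence, the last 6 codons before the stop, where the prenylated cysteines lie. Capitals mark cysteine codons.
Rab7: gcagaaagcTGCagtTGT
Rab11a: cagTGCTGTcagaacatc
Rab2a: gcagggggaggcTGCTGT
Rab6a: gaaggcggcTGTtccTGC
Rab38: tctggcTGTgccaaatcc
Rab10: tggaagagcaagTGCTGC
Rab8a: ttccggTGCagtctcctg
Rab2a and Rab10 end in a cysteine pair, Rab7 and Rab6a have another codon between the cysteines, and Rab11a carries its pair inside the last 6 codons. Of the 57 members in which the loop pattern was found, 15 ended in 2 cysteine codons, 19 had cysteines last and next but 1 to last, and 21 had them elsewhere among the last 6 codons. In 6 members, Rab8a, Rab8b, Rab13, Rab23, Rab28 and Rab38, a single cysteine codon stood there. The 2 members with none, Rab18 and Rab43, were read from 1 listed transcript each. For Rab43 that transcript had only 150 codons and held 22.2% of the gene's TPM. The absence therefore describes the transcripts read, and whether the proteins lack such a cysteine was not tested. The pattern was not found in Rab40b and Rab40c.

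The family held a small share of the oocyte transcriptome. Its summed level was 2923, 3071, 3399.8, 3477 and 3562 TPM in the control libraries, in order of size, and 3195, 3228, 3332, 3545 and 3797 TPM in TubA. The groups overlapped, at 3287 ± 276 and 3419 ± 252 TPM (SD, n = 5 each), and the share ran from 0.292% to 0.380% of a library. A handful of members made up most of it. By their mean over all libraries, 7 members stood at 100 TPM or more, 19 from 10 to under 100, 15 from 1 to under 10, and 16 above 0 but under 1, while 2, Rab19 and Rab42, were listed at 0 in all libraries. The top 7 held 74.4% of the family's TPM in control and 76.1% in TubA. Of the 59 members, 42 were above 0 in all 10 libraries, whereas Rab20 and Rab39 were above 0 in 1 library only.

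**Figure D1:**
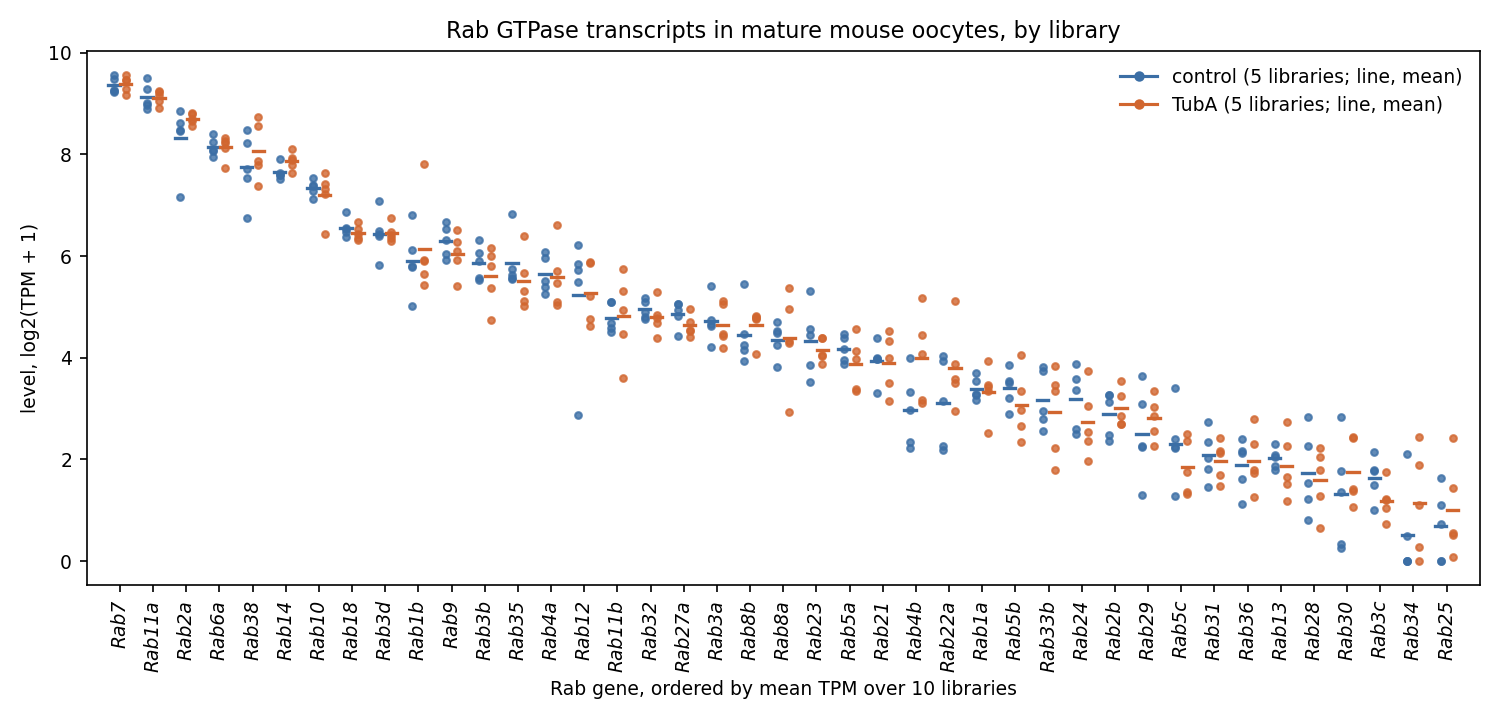
Level of the 41 Rab genes whose mean reached 1 TPM, in log2(TPM + 1) and ordered by mean TPM, with 1 point per library, a short line at each group's mean, and control and TubA in different colours. Rab7 and Rab11a stand highest, and the points of both groups intermix for all genes shown.

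The family's most abundant member belonged to late endosomes. Rab7, which directs late endosomes and autophagosomes to lysosomes (chromosome 6, 87999106-88045270, minus strand, GRCm38), was at 615, 608, 753, 599.7 and 713 TPM in control replicates 1 to 5. In TubA replicates 1 to 5 it was at 703, 621, 571, 703 and 754 TPM. It ranked 212 among all genes by mean level, and the groups overlapped over nearly their whole range. Rab9, which returns cargo from late endosomes to the Golgi (chromosome X, 166457253-166479867), was 6.57 to 18.0 times lower than Rab7 within a library. It ran from 59.4 to 101 TPM in control and from 41.8 to 90 TPM in TubA. Late endosome members together held 22% of the family's TPM, 737 ± 77.4 in control and 738 ± 71.9 in TubA (SD, n = 5 each).

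Recycling endosome members held the largest share, 27.6%. They summed to 914 ± 114 TPM in control and 939 ± 46.9 TPM in TubA (SD, n = 5 each). Rab11a, the Rab of oocyte actin vesicles and of recycling endosomes (chromosome 9, 64715299-64737758, minus strand), was at 516, 472, 498, 721 and 624 TPM in control. It was at 479, 603, 599, 527 and 576 TPM in TubA, all inside the control range. It was below Rab7 in 8 of 10 libraries and above Rab2a in all 10. Its paralog Rab11b was at 21.6, 24.6, 33.3, 33.2 and 22.9 TPM in control and 52.9, 29.6, 11.1, 38.7 and 21.2 TPM in TubA. Rab11a exceeded Rab11b by 9.05 to 53.8 times in every library. Rab14, which works between the Golgi and endosomes (chromosome 2, 35180205-35201120), was at 198, 192, 181, 193 and 239 TPM in control. In TubA it was at 235, 221, 242, 197 and 276 TPM, and 3 TubA values lay within the control range. Rab35, active in fast recycling and in cytokinesis, was at 52.9, 46.0, 113, 46.4 and 48.5 TPM in control and 31.6, 49.6, 38.5, 82.8 and 33.9 TPM in TubA. The 113 TPM of control replicate 3 stood far from the other controls.

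Members of traffic between the endoplasmic reticulum and the Golgi held 25.5% of the family's TPM. They summed to 811 ± 109 TPM in control and 902 ± 64.5 TPM in TubA (SD, n = 5 each). Rab2a, which acts at the early Golgi (chromosome 4, 8535644-8607778), was at 353, 389, 142, 358 and 461 TPM in control. In TubA it was at 400.5, 447, 374, 415 and 441 TPM. Control replicate 3, at 142 TPM, was the lowest of all libraries, and the other controls overlapped the TubA libraries. Rab6a, which guides Golgi vesicles (chromosome 7, 100607410-100641268), was at 272, 247, 302, 268 and 338 TPM in control and 278, 299.8, 306, 213 and 319 TPM in TubA. Those values differed little between the groups. Rab1b, needed for budding and tethering on the way to the Golgi (chromosome 19, 5099205-5107072), was at 31.4, 54.9, 68.8, 110.4 and 54.1 TPM in control. In TubA it was at 48.9, 41.9, 59.0, 225 and 59.6 TPM, so that a single library gave its higher TubA mean. Rab18, found on lipid droplets and the endoplasmic reticulum, was at 91.2, 82.4, 115, 87.7 and 92.6 TPM in control and 78.5, 85.9, 80.6, 91.8 and 100.3 TPM in TubA. The groups overlapped, at 93.8 ± 12.7 and 87.4 ± 8.86 TPM (SD, n = 5 each).

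Members of secretion and the cell surface held 12% of the family's TPM. They summed to 413 ± 52.3 TPM in control and 392 ± 56.2 TPM in TubA (SD, n = 5 each). Rab10, which carries secretory vesicles to the surface (chromosome 12, 3247428-3309969, minus strand), was at 185, 154, 165, 139 and 168 TPM in control. It was at 85.9, 159, 170.2, 148 and 198 TPM in TubA, where replicate 1 was the lowest of all 10. The Rab3 subfamily, which acts in regulated exocytosis, was led by Rab3d (chromosome 9, 21907491-21918192), at 56.0, 82.7, 134, 85.2 and 88.7 TPM in control. In TubA Rab3d was at 87.9, 84.1, 77.7, 107 and 80.8 TPM, all inside the control range. Rab3a, the member best known for the cortical granules of the oocyte, was lower, at 17.6, 23.7, 24.2, 25.7 and 41.6 TPM in control and 17.3, 20.6, 33.7, 21.2 and 32.1 TPM in TubA. In every library Rab3d exceeded Rab3a, by 2.14 to 5.52 times. Rab3b (chromosome 4, 108879063-108943324) lay between them at 58.8 ± 13.8 TPM in control and 50.9 ± 17.9 TPM in TubA, but 62.4% of its TPM sat on a processed transcript with no annotated protein. Rab3c was at 2.23 ± 0.893 and 1.34 ± 0.629 TPM (SD, n = 5 each). Rab27a, which docks secretory granules at the surface, was at 20.6, 32.5, 32.4, 29.5 and 27.2 TPM in control and 30.1, 22.1, 22.5, 20.3 and 25.2 TPM in TubA. Its groups overlapped. Rab8a, of surface-bound traffic and cilia, was at 13.1, 22, 21.5, 24.9 and 17.9 TPM in control and 30.0, 6.68, 19.2, 40.4 and 18.6 TPM in TubA. Its paralog Rab8b was higher in 5 of 10 libraries and lower in the other 5, so neither led.

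Members of lysosome-related organelles held 8.72% of the family's TPM. Rab38 (chromosome 7, 88430273-88491572), known for pigment granules, was at 107, 185, 358, 297 and 209 TPM in control and 376, 165, 219, 426 and 234 TPM in TubA. Both groups ranged widely, from 107 to 358 TPM and from 165 to 426 TPM, and overlapped. Its relative Rab32 was lower in every library, by 3.04 to 16.0 times. With Rab29, at 5.59 ± 3.93 and 6.27 ± 2.08 TPM, these members summed to 267 ± 98.8 TPM in control and 317 ± 118 TPM in TubA (SD, n = 5 each).

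Early endosome members held only 1.75% of the family's TPM, at 58.7 ± 3.38 TPM in control and 58.6 ± 17.5 TPM in TubA (SD, n = 5 each). Rab5a, which sets the identity of early endosomes, was at 14.5, 21.2, 13.6, 16.9 and 20 TPM in control. It was at 16.6, 9.20, 9.47, 22.6 and 14.8 TPM in TubA, spanning the control range on both sides. Rab5a exceeded Rab5c by 1.42 to 14.1 times and Rab5b by 1.0 to 3.10 times within a library. Rab5c was at 4.53 ± 3.01 TPM in control and 2.84 ± 1.48 TPM in TubA, and Rab22a, of the same compartment, at 8.99 ± 5.62 and 15.1 ± 10.7 TPM (SD, n = 5 each). For Rab22a, 55.4% of the TPM sat on a transcript annotated for nonsense-mediated decay.

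Neighbours in the order of levels were not all separable. Rab7 over Rab11a held in 8 of 10 libraries, Rab11a over Rab2a in 10, and Rab2a over Rab6a in 9. Rab6a exceeded Rab38 in 6 libraries and Rab38 exceeded Rab14 in 4, so these 3 did not separate. Rab14 over Rab10 and Rab10 over Rab18 each held in all 10. From Rab18 downward the order was loose: Rab18 exceeded Rab3d in 6 libraries, and Rab1b exceeded Rab9 in 3. Within the paralog pairs compared the same member led in every library, apart from Rab8a and Rab8b. Rab6a exceeded Rab6b by 526 to 8858 times, Rab2a exceeded Rab2b by 18.4 to 101 times, Rab1b exceeded Rab1a by 3.66 to 15.9 times and Rab4a exceeded Rab4b by 2.01 to 16.8 times.

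**Figure D2:**
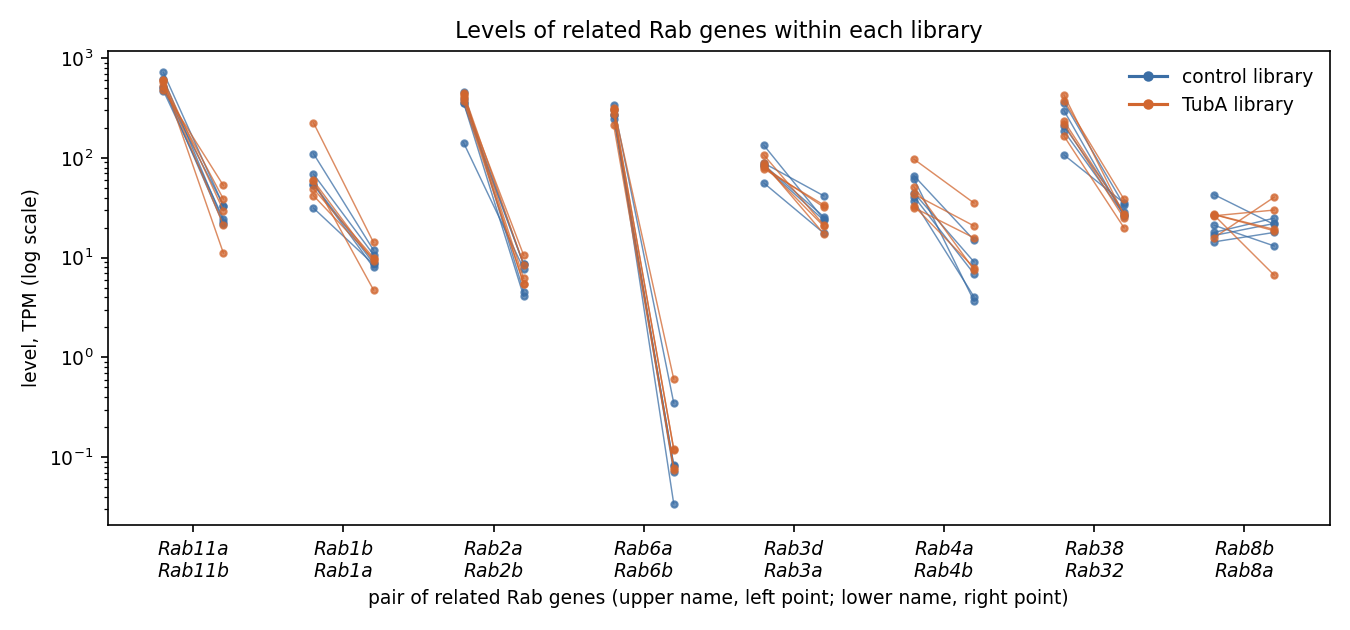
Levels of 8 pairs of related Rab genes in TPM on a log axis, with 1 line per library joining both genes of a pair and control and TubA in different colours. The lines fall for 7 pairs in all 10 libraries, most steeply from Rab6a to Rab6b, and cross only between Rab8b and Rab8a, whose ratio ran from 0.395 to 3.97.

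Some of these levels rest on transcripts or sequence that other genes share. Rab24 shared 54.4% of its words of 31 bases with Prelid1, an overlapping neighbour at 8.65 TPM, so its level is uncertain. Rab6a shared 18.2%, Rab7 17%, Rab11b 11% and Rab2a 10.7%, while Rab1b shared 0.425% and Rab11a none. For Rab32 50.7% and for Rab35 22.4% of the TPM sat on a transcript annotated for nonsense-mediated decay. For Rab11a 15.7% and for Rab5b 52.9% of the TPM sat on a transcript with a retained intron. For Rab34 the share was 80.4% on 1 such transcript and 11.3% on another, and its level was listed at 0 in 3 control libraries and 1 TubA library.

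Promoters were compared because most abundant members are used in nearly all cells, whose promoters are often rich in CpG, the sequence CG, which reads the same on both strands. RefSeq (GRCm38.p6) gave a promoter of 300 bases, 250 before and 50 after the start, for 48 of 59 members. None was matched for Rab18, Rab26, Rab27b, Rab2a, Rab30, Rab36, Rab37, Rab38, Rab44, Rab4a and Rab7b. The first promoter listed under each symbol was taken, and whether these oocytes use that promoter was not tested. Of members with a mean of at least 1 TPM, 32 of 35 (91.4%) held 10 or more CpG, with a median of 23. Of members under 1 TPM, 9 of 13 (69.2%) did, with a median of 17. Among all protein-coding genes the share was 80.8% from 1 TPM up and 35.2% below, and over all promoters in the table it was 43.9%. A promoter rich in CpG did not go with a high level in every member. The next sequences show this with an abundant and a scarce member of near-equal CpG number and with Rab7, CpG in capitals.
Rab10 (43 CpG, chr12:3309920-3310219, minus strand): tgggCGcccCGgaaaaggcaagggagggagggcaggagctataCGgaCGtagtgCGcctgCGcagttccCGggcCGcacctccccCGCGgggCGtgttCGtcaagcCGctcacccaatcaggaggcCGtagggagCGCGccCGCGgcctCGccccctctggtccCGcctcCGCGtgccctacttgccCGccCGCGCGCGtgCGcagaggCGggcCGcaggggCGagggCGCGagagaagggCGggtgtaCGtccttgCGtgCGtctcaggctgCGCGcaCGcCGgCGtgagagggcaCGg
Rab6b (42 CpG, chr9:103111824-103112123, plus strand): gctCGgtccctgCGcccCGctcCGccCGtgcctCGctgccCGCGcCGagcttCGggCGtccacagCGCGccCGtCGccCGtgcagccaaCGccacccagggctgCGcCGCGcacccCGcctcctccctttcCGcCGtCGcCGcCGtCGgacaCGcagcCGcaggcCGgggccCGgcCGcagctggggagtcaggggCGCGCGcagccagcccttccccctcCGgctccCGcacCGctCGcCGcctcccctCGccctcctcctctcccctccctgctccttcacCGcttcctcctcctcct
Rab7 (18 CpG, chr6:88045221-88045520, minus strand): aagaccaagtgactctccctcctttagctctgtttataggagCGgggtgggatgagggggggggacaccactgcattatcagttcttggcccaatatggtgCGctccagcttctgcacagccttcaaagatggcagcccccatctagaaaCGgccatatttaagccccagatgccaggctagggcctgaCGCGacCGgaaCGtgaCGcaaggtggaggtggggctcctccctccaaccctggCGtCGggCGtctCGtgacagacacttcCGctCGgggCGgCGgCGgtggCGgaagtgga
Over all libraries Rab10 had a mean of 157 TPM and Rab6b of 0.162 TPM, with 43 and 42 CpG. Rab7, with 18 CpG, stood at 664 TPM.

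TubA was then set against control, to ask whether Rab transcripts changed in oocytes matured with it. No Rab gene passed the threshold. The test was limma on log2(TPM + 1) over all 11664 genes whose mean reached 1 TPM. Differences are TubA minus control in those units, and for low genes they are smaller than the change in TPM itself. Of the 59 members 41 had that mean, 0 of them passed an adjusted p of 0.05, and the lowest adjusted p was 1.0. Over all genes 0.00857% (1 of 11664) passed. At an unadjusted p under 0.05 stood 1 member, 2.44% of 41, beside 2.51% of all genes. It was higher with TubA, against 1.13% of all genes that were higher and 1.38% that were lower, and 0 members were lower. The members' count was thus close to the background. For no member were the 5 control and 5 TubA libraries without overlap, beside 0.454% of all genes.

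Differences lay on both sides of 0. They were above 0 for 18 members (43.9%), beside 51.4% of all genes, and below for 23. The median was -0.028 for the members and 0.0097 for all genes, and the members ran from -0.46 to 1.02. The precision varied between members. For 25 members (61.0%) the 95% interval lay within 1 log2 unit on either side of 0, beside 57.0% of all genes. For Rab7, Rab11a, Rab6a, Rab18 and Rab3d it lay within 0.5. In simulated data with the same number of libraries, limma found 33% of genes changed 2-fold and 81.5% of those changed 4-fold, so smaller changes could be missed. The changed genes were drawn only from the more abundant genes, so these rates do not cover the members of low level. The simulated noise was independent between libraries and held no library sets.

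**Figure D3:**
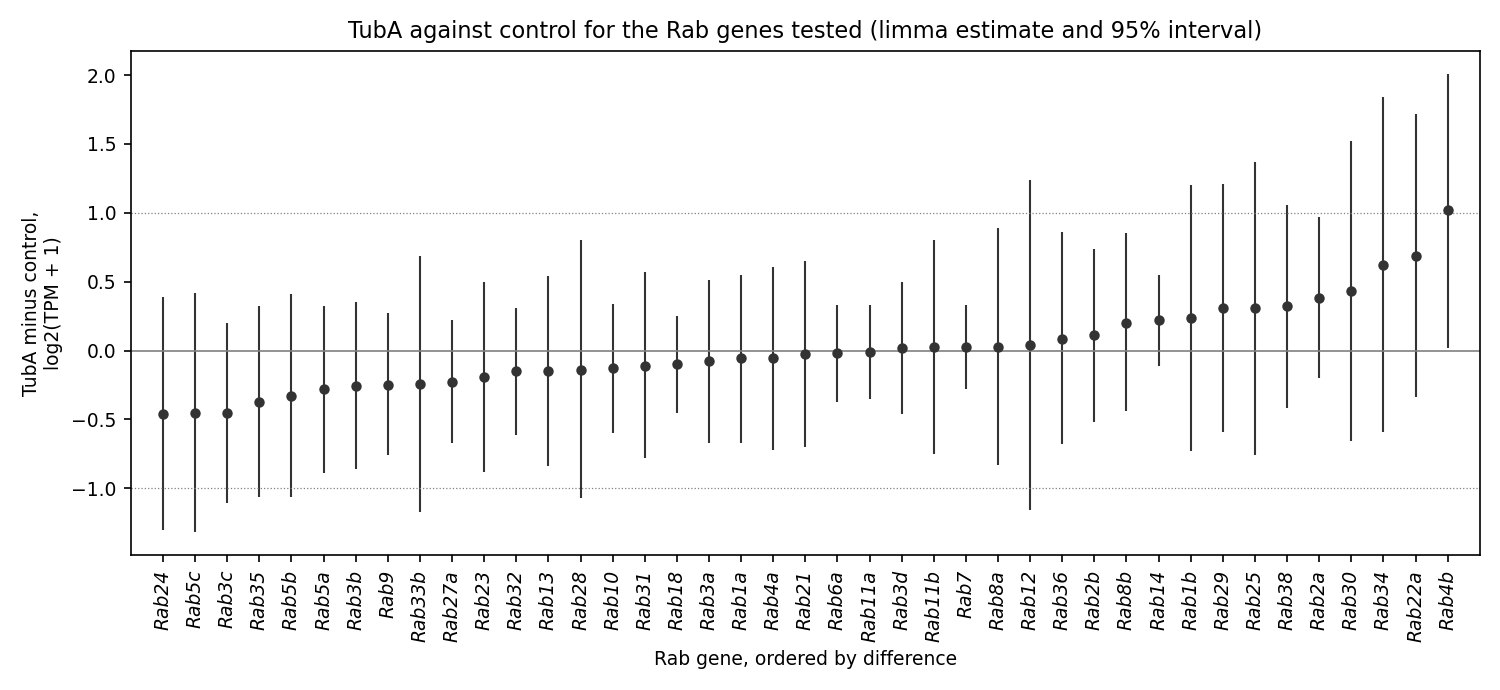
Difference TubA minus control of each tested Rab gene in log2(TPM + 1), with the limma estimate as a point and its 95% interval as a bar, ordered by size. All intervals but that of Rab4b cross 0, and the dotted lines stand at 1 log2 unit either way.

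Rab7, Rab11a, Rab6a and Rab18 had standard errors well below the members' median of 0.31. Rab7 differed by 0.03 (SE 0.14, 95% interval -0.28 to 0.33) and Rab11a by -0.01 (SE 0.16, -0.35 to 0.33). Within the library sets the Rab11a difference was 0.12 in A and -0.24 in B. Rab6a differed by -0.02 (SE 0.16, -0.37 to 0.33) and Rab18 by -0.10 (SE 0.16, -0.45 to 0.25). For these members a change as large as 2-fold lay outside the interval. For Rab14 the difference was 0.22 (SE 0.15, -0.11 to 0.55), for Rab38 0.32 (SE 0.34, -0.42 to 1.06), and for Rab10 -0.13 (SE 0.22, -0.60 to 0.34). For Rab2a it was 0.38 (SE 0.27, -0.20 to 0.97), and 0.10 without control replicate 3, the library at 142 TPM. Set A alone gave 0.65 and set B alone 0.01. The value of Rab2a therefore rested mostly on 1 control library. Among the secretion members, Rab3a differed by -0.08 (SE 0.27, -0.67 to 0.51), Rab3d by 0.02 (SE 0.22, -0.46 to 0.50) and Rab27a by -0.23 (SE 0.20, -0.67 to 0.22). For Rab11b the interval was wider, from -0.75 to 0.80 around 0.02.

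Rab4b, of early recycling endosomes, was the 1 member at an unadjusted p under 0.05. It was at 4.06, 3.68, 9.07, 15.0 and 6.89 TPM in control and 7.59, 7.93, 20.8, 35.3 and 15.8 TPM in TubA. The 3 highest TubA libraries were above all controls, and the lower TubA libraries lay within the control range. The means were 7.75 ± 4.63 and 17.5 ± 11.4 TPM (SD, n = 5 each), and the difference was 1.02 (SE 0.46, 95% interval 0.02 to 2.01, limma adjusted p = 1.0). Set A alone gave 0.50, set B alone 1.07, and a fit with the set in the model 0.79. The unadjusted p rose above 0.05 without control replicate 1, 2, 3 or 5 or TubA replicate 3, 4 or 5, and the difference then lay between 0.72 and 1.10. It also rose above 0.05 when only protein-coding transcripts were summed, with a difference of 0.97. Its paralog Rab4a was far more abundant, at 37.0, 61.7, 44.7, 66.4 and 41.0 TPM in control and 51.2, 33.0, 43.3, 97.1 and 31.7 TPM in TubA.

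The other members with the smallest p values in each direction did not reach 0.05. On the higher side Rab22a differed by 0.69 (SE 0.47, limma adjusted p = 1.0), and by -0.32 when only its protein-coding transcripts were summed. Rab34, linked to cilia and lysosome position, differed by 0.62 (SE 0.56), and nearly all of its TPM was on retained-intron transcripts. On the lower side Rab24, linked to autophagy, differed by -0.46 (SE 0.39), Rab5c by -0.45 (SE 0.40), Rab3c by -0.45 (SE 0.30), Rab35 by -0.37 (SE 0.32) and Rab27a by -0.23, as given above. Rab5c had the largest difference of any member within set A, -1.28, and was at 0.36 within set B. Rab5a differed by -0.28 (SE 0.28). By role the median difference was -0.19 for early endosomes (1 above and 5 below 0), -0.13 for secretion (3 and 6) and -0.11 for late endosomes (1 and 1). It was 0.02 for recycling endosomes (4 and 3), 0.05 for the endoplasmic reticulum and Golgi (4 and 4), 0.31 for lysosome-related organelles (2 and 1) and -0.05 for the rest (3 and 3). The intervals of all these members but Rab4b crossed 0, and no role was tested. Rab9 differed by -0.25 (SE 0.24), Rab3b by -0.26 (SE 0.28), Rab1b by 0.24 (SE 0.44) and Rab8a by 0.03 (SE 0.40). The Rab1b value was -0.18 without TubA replicate 4, the library at 225 TPM.

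Certain libraries carried many of the extreme values. TubA replicate 4 held the highest value of 12 members (29.3%), beside 21.1% of all genes, and control replicate 3 that of 9 members (22%), beside 21.5%. Control replicate 1 and TubA replicate 1 each held the lowest value of 7 members (17.1%), beside 23.4% and 8.03% of all genes. The median SD of log2(TPM + 1) was 0.21 for the 7 members of at least 100 TPM, beside 0.35 for all 1589 genes of that level. From 10 to under 100 TPM it was 0.49 for members and 0.48 for all genes, and from 1 to under 10 TPM 0.65 and 0.60. These spreads are a description and were not tested.

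**Figure D4:**
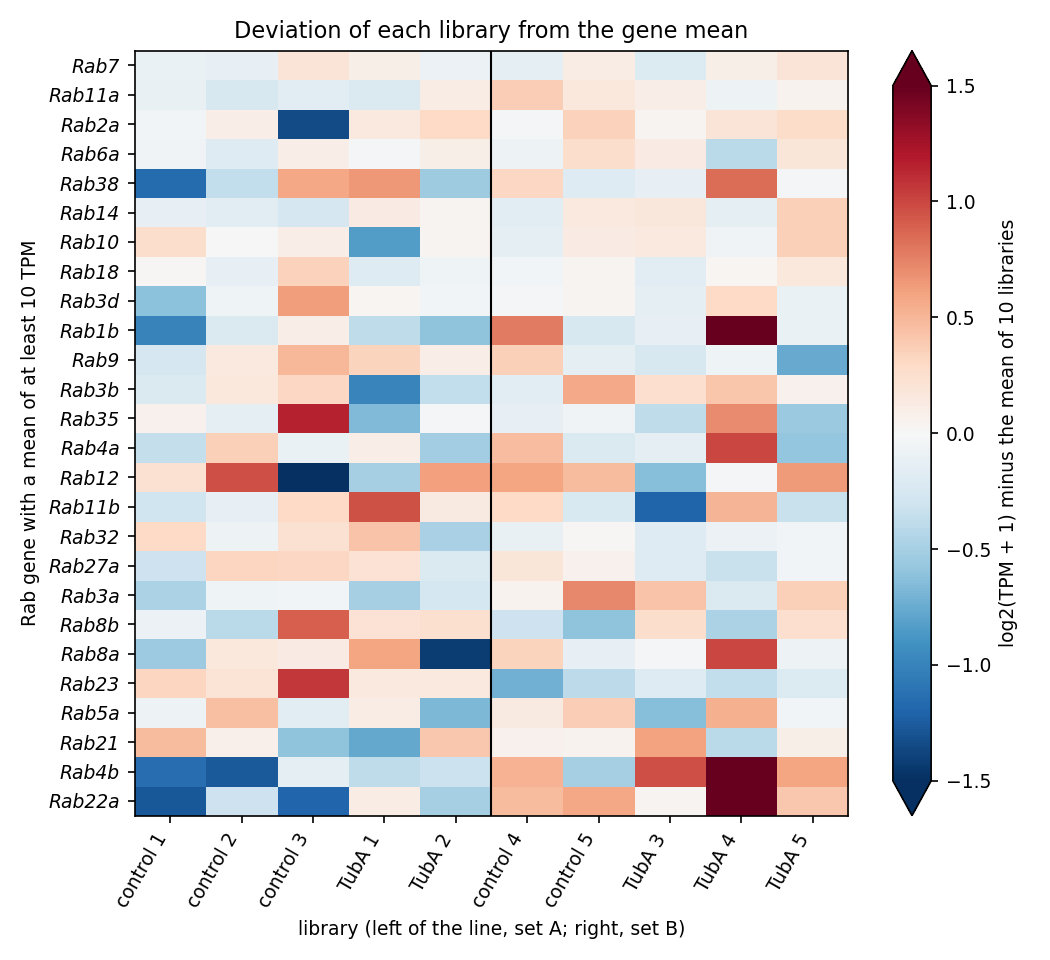
Deviation of each library from the gene's mean in log2(TPM + 1), as colours from blue (below) to red (above) that end at 1.5, for the Rab genes with a mean of 10 TPM or more. Columns are libraries, set A left of the line and set B right. Among the deepest colours are the low Rab12 and Rab2a of control replicate 3 and the high Rab1b of TubA replicate 4.

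Rab levels differed between the library sets for few members. The family summed to 3191 ± 194 TPM in set A and 3515 ± 216 TPM in set B (SD, n = 5 each). Sets A and B did not overlap for 3 members, 7.32% of 41, beside 5.14% of all genes. The members that were lower in set B were 2, beside 2.95% of all genes, and 1 was higher in set B, beside 2.19%. The sets were found from the same values, so these counts are descriptions. Rab23, a regulator of Hedgehog signalling, was at 22.6, 20.8 and 38.6 TPM in control replicates 1 to 3 and 19.9 and 20 TPM in TubA replicates 1 and 2. In set B it was at 10.5 and 13.4 TPM in control replicates 4 and 5 and in TubA replicates 3 to 5 at 15.5, 13.6 and 15.4 TPM. Rab2b, the minor paralog of Rab2a, was also lower in set B, and Rab28, known for its part in photoreceptors, was higher.

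The genes that load, unload and deliver Rab proteins were examined as 4 lists chosen for known function. No member of any list passed the threshold in either direction. All 8 genes of prenylation and delivery were tested, with 4 differences above and 4 below 0 and a median of 0.05. Gdi2, a GDP dissociation inhibitor found in most tissues, was at 151 ± 28.5 TPM in control and 159.7 ± 16.2 TPM in TubA (SD, n = 5 each). Rabif, a chaperone for some Rabs, was at 54.6 ± 22.3 and 43.7 ± 18.7 TPM. Of the exchange factors 45 of 55 were tested, 27 above and 18 below 0, with a median of 0.08. Dennd6a, an exchange factor of Rab14, was at 129 ± 17.4 and 112 ± 29.1 TPM, and Rab3gap1, part of the Rab18 exchange complex, at 97.6 ± 34.8 and 111 ± 32.6 TPM.

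Of the TBC proteins, which turn Rabs off, 26 of 38 were tested, 17 above and 9 below 0, with a median of 0.09. Tbc1d15, an inactivator of Rab7, was the most abundant, at 1166 ± 195 TPM in control and 956 ± 128 TPM in TubA (SD, n = 5 each), and differed by -0.28 (limma adjusted p = 1.0). It was higher than every Rab gene in mean level. Tbc1d14, of Rab11 endosomes and autophagy, was at 413 ± 312 and 385 ± 161 TPM. Of the effectors 39 of 55 were tested, 19 above and 20 below 0, with a median of -0.02. The vesicle motor Myo5b, which binds Rab11a, was at 258 ± 32.2 and 285 ± 44.9 TPM. The Golgi tether Golga5 was at 221 ± 64.8 and 318 ± 52.8 TPM, a difference of 0.56 (SE 0.22, limma adjusted p = 1.0). Tbc1d7, also a subunit of the TSC complex, was at 0.762 ± 0.511 and 3.35 ± 2.66 TPM, and Rabep1, which binds Rab5 and Rab4, at 71.2 ± 9.75 and 53.3 ± 9.08 TPM. Golga5, Tbc1d7 and Rabep1 were the list genes at an unadjusted p under 0.05, the first and second higher and the last lower with TubA. They were 3 of 118 list genes tested, 2.54%, beside 2.51% of all genes. Tbc1d7 and Rabep1 were named after their values were seen.

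**Figure D5:**
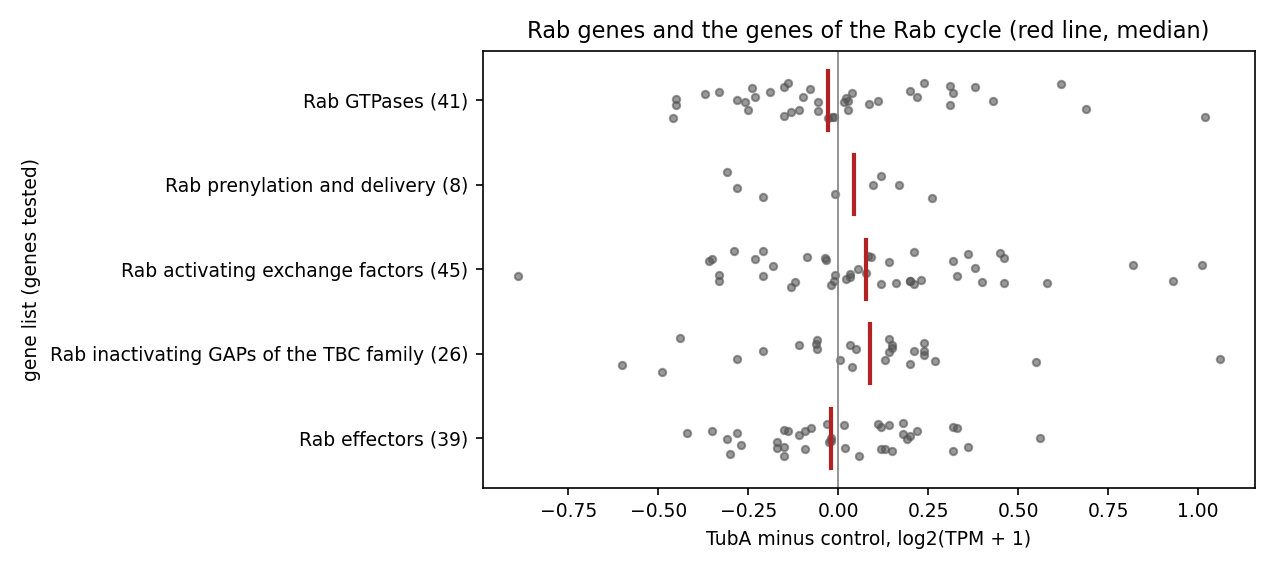
Difference TubA minus control in log2(TPM + 1) of each tested gene of the 4 Rab cycle lists and of the Rab family, with 1 point per gene and the median as a line. All medians lie between -0.028 and 0.092, close to the 0.0097 of all genes.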

How the data were processed

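Single oocytes were amplified with Smart-seq2, per the labels' protocols, and sequenced on an Illumina instrument, per the series' design text. Per the submitters' processing notes, the tools included Bowtie 0.12.2 and the build was mm10. The sources used here name neither the abundance program nor its annotation, nor whether strand was kept. The deposited files hold TPM per Ensembl transcript, a unit read from the values, since each library has the same total. Depth is unknown.

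Gene values are sums over transcripts, assigned by GENCODE M21 on GRCm38 (113492 of 115270 matched), in Python 3.11.15 with pandas 2.3.3. TubA and control (5 libraries each) were compared with limma 3.58.1 in R 4.3.3 on log2(TPM + 1), with a mean minimum of 1 TPM, robust moderation around an intensity trend, and Benjamini-Hochberg adjustment over 11664 genes at 0.05. It was tested on 20 simulated sets with 200 changed genes, drawn from the more abundant genes, where 4.73% of calls were false. Sequence sharing was the percentage of words of 31 bases found in other listed genes, and 20% or more counted as a copy. Named are the 12 most abundant members, up to 5 of smallest p per direction, 8 of known function, those listed at 0 and, per list, the 2 most abundant. The members and lists were chosen with earlier results of these data known. Alternatives covered pseudocount, filter, scaling, library weights, replicate block, library sets, summing with copies and leaving out each library. Protein-coding transcripts only was added after seeing the data.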

Additional observations from a re-analysis of the deposited data

Results flagged for a closer look

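A library far from the other four of its group was looked for in 48 groups, the control and the TubA libraries of 24 Rab genes, and was found in 4. Chance flags about 5% of such groups. Rab1b was at 225 TPM in TubA replicate 4, with the other TubA libraries between 41.9 and 59.6 TPM. Rab22a was at 33.8 TPM in the same library, with the others between 6.78 and 13.6 TPM. Rab35 was at 113 TPM in control replicate 3, with the other controls between 46.0 and 52.9 TPM. Of the 113 TPM, 48.3 TPM sat on a transcript annotated for nonsense-mediated decay, which held 4.25 to 12.4 TPM in the other controls. Its protein-coding transcript was at 64.9 TPM there and at 36.1 to 45.4 TPM in the other controls. Rab34 was at 3.33 TPM in control replicate 3, and it was listed at 0 in 3 other controls and at 0.398 TPM in the last.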

How the results depend on the processing

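Under all alternatives run 0 Rab genes passed the threshold. Over all genes the count of 1 became 0 with a mean minimum of 5 TPM, 0 in set B alone and 12 in set A alone. The members at an unadjusted p under 0.05 numbered 0 in set B alone, 0 with protein-coding transcripts only, and between 0 and 1 when each library was left out in turn, with 0 without control replicate 1, 2, 3 or 5 or TubA replicate 3, 4 or 5. The 1 member there was Rab26 with no filter, Rab24 with library weights and Rab5c in set A alone, in place of Rab4b. With a pseudocount of 0.1 the difference of Rab34 was 1.64. The labels do not say whether replicate numbers pair the libraries. Same-numbered libraries correlated between -0.308 and 0.476 in their deviations, and only numbers 4 and 5 were closest to their own. So few libraries cannot settle whether the numbers pair them. With the replicate block 0 genes and 0 Rab genes passed, and Rab4b was the 1 Rab gene at an unadjusted p under 0.05.

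Of 548 differences of the 24 named Rab genes under alternatives, 503 kept their direction and 45, over 15 genes, had the opposite sign, and the cause was not tested. With library weights these were Rab6a at 0.062, Rab3d at -0.001, Rab1b at -0.055, Rab11b at -0.093 and Rab8a at -0.21. In set A alone they were Rab11a at 0.12, Rab6a at 0.081, Rab1b at -0.12, Rab9 at 0.086 and Rab8a at -0.33. In set B alone they were Rab10 at 0.16, Rab18 at 0.0068, Rab3b at 0.046, Rab35 at 0.0072, Rab11b at -0.38 and Rab5c at 0.36. With the set as a term Rab8a was at -0.064, and with quantile normalisation Rab11a was at 0.016. With protein-coding transcripts only, Rab11a was at 0.03 and Rab22a at -0.32. With a library left out, Rab7 ran from -0.017 to 0.083, Rab11a from -0.073 to 0.08, Rab6a from -0.066 to 0.082 and Rab10 from -0.24 to 0.058. Rab3d then ran from -0.14 to 0.18, Rab1b from -0.18 to 0.46, Rab11b from -0.21 to 0.33, Rab3a from -0.21 to 0.092 and Rab8a from -0.22 to 0.39. Rab3c, Rab5c and Rab34 gave no value with a mean minimum of 5 TPM, nor Rab34 with protein-coding transcripts only.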
